A study of Bos taurus with 20 samples.

Results

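The response of the bovine udder to intramammary Escherichia coli was compared between 48 h and 24 h post challenge. Within each cow, the log2 signal of the unchallenged gland (NC) was subtracted from that of the challenged, untreated gland (CNT), and these differences were compared between 3 cows sampled at 48 h and 2 cows sampled at 24 h. The comparison used 10 of the 20 arrays of the study, 4 at 24 h and 6 at 48 h. A cow has separate glands, each with its own teat, that do not share milk. All 5 animals were mid-lactating Holstein Friesian cows. In every cow NC was the right front gland, neither challenged nor treated, and CNT was the left front gland, which received 100 colony forming units (CFU) of the E. coli mastitis strain ECC-Z through the teat canal. The remaining glands of each cow, the rear ones, were challenged as well and treated with cefapirin (CF) or with cefapirin and prednisolone (CFPD). Their arrays were used only in an alternative fit.

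Total RNA of mammary tissue, with an RNA integrity number above 8, was hybridised to the GeneChip Bovine Genome Array of Affymetrix, with a separate array for each gland. The labels place the tissue in the cisternal region and the methods of the study in the mid parenchyma. Different cows were killed at each time, so time and cow cannot be told apart beyond the spread between cows, and gland position cannot be told apart from challenge. The NC gland shared its cow with 3 challenged glands and with drug-treated glands, which had received more doses by 48 h than by 24 h, so it is no uninfected animal and dosing cannot be told apart from time.

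E. coli reaching the milk is sensed by the epithelium and by macrophages through Toll-like receptors, which turn on cytokines, chemokines and antimicrobial peptides through the transcription factor NF-kB. Chemokines draw neutrophils from the blood into the gland, and monocytes commonly follow them. Acute phase proteins such as haptoglobin and serum amyloid A3 are also made by the mammary epithelium, and complement proteins coat bacteria, attract leukocytes and are held back by inhibitors of the same system.

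Markers of leukocytes differed between the groups of glands. The mean log2 signal over 7 tested neutrophil markers ranged from 7.53 to 8.33 in the NC glands, from 10.75 to 12.44 in the CNT glands at 24 h and from 10.22 to 11.35 in the CNT glands at 48 h. The mean over 10 markers of monocytes and macrophages was between 8.14 and 9.02 in NC glands, 8.72 and 9.39 in CNT glands at 24 h and 9.51 and 9.99 in CNT glands at 48 h. Markers of the milk-producing epithelium (milk protein and lactose synthesis, 15 tested) had means between 13.47 and 13.86 on all 10 arrays. In whole tissue, fewer cells of a type and less RNA per cell cannot be told apart. Array medians lay between 7.13 and 7.31, and the CNT array of cow8507 had the highest mean, 7.43 against 7.29 to 7.33 on the other CNT arrays. The bacterial hybridisation controls were at 11.4 to 11.8 on the arrays of cow8605 and cow8620 and at 10.4 to 11.1 on the others, which splits both times.

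At 24 h, 351 of 13429 tested probe sets (2.61%) had a higher signal in CNT than in NC and 125 (0.931%) were lower, 476 in all (3.54%). At 48 h, 535 (3.98%) were higher and 145 (1.08%) lower, 680 in all (5.06%). A probe set was called at an adjusted p under 0.05 (limma, Benjamini-Hochberg) and a log2 change of at least 1. Of these, 200 were higher at both times (1.49%) and 31 were lower at both (0.231%), 244 were called at 24 h only, 448 at 48 h only, and 1, G0S2, was called in opposite directions. These counts rested on single cows. Without cow8620 no probe set passed at 24 h (948 at an unadjusted p under 0.05), and without cow8609 190 passed, without cow8605 293. Without cow8605 247 passed at 48 h, and 98 instead of 231 were called at both times. After quantile normalization of the 10 arrays, 407 probe sets were higher and 221 lower at 48 h, so that 64.8% of the calls were rises in place of 78.7%, and the median change over all tested probe sets moved from 0.14 to -0.02 at 48 h and from 0 to -0.05 at 24 h.

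No probe set passed the test of the difference between the times itself. In the fit of the per-cow differences with limma, 0 of 13429 probe sets were called (0%), 1371 (10.2%) had an unadjusted p under 0.05, and the lowest adjusted p was 0.0836, for G0S2. The difference between times had a median standard error of 0.29, and the 95% interval at that error reached 0.68 on the log2 scale to either side. With all 20 arrays in 1 fit and the cow as a block, 26 probe sets were called (0.194%), 18 with a larger or less negative change at 48 h and 8 with a smaller or more negative one. The residual spread of that fit came partly from the CF and CFPD glands, and the number of cows was unchanged. Its lower adjusted p values therefore do not rest on more animals, and the labels of some CF and CFPD arrays are in doubt. Of the 26, 12 were also called after all 20 arrays had been quantile normalized. Among the genes described below, PTX3, CD40, CCL19, IL1R2 and SPINK4 passed in the fit of all arrays with a lower change at 48 h. C1S, C6, SLC3A2 and DZIP3 passed with a higher one. PEG3 also passed with a higher one, on a probe set other than the first described below (1.54, limma, adjusted p = 0.0464). PTX3, IL1R2, C6 and PEG3 no longer passed once these arrays were quantile normalized. Without cow8452, 5 probe sets were called in the fit of 10 arrays, those of LBP (a time difference of 3.26, adjusted p = 0.0353), C4BPA (4.18, adjusted p = 0.0184), SDS (3.32, adjusted p = 0.0353), G0S2 (-3.54, adjusted p = 0.0422) and 1 probe set with no symbol. The early and late genes below are therefore a description of the cows measured. The interval or adjusted p of the time difference is given for some of them only. The intervals are per probe set and not adjusted for the number tested. An adjusted p beside a change at 24 h or 48 h belongs to that change. The SE beside a change is that of the limma fit, and n is the number of cows at that time. Its variance is pooled over the cows of both times and moderated by the prior. It is therefore not the spread of the n cows alone.

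As such a description, probe sets were sought whose per-cow differences did not overlap between the times, with means at least 1 apart. A lack of overlap was common by itself, in 3847 of 13429 probe sets at any size of difference. Every 48 h cow above is 1 of the 10 arrangements of the cows, and every 48 h cow below is another. With means at least 1 apart, 400 had every 48 h cow above every 24 h cow (2.98%). A further 160 had every 48 h cow below (1.19%), 560 in all (4.17%). Among the probe sets called at 24 h, 129 moved towards no change at 48 h in this way, 69 rises and 60 falls. Among those called at 48 h, 122 were farther from 0 than at 24 h, 93 rises and 29 falls. Most calls made at a single time had the same sign at the other, 217 of 244 for the calls of 24 h and 402 of 448 for those of 48 h. The share of all tested probe sets with the same sign was not counted. Over these, the mean changes of the times had a correlation of 0.65. The rises called at 24 h only had a median log2 change of 1.40 at 24 h and 0.75 at 48 h, and those called at 48 h only had medians of 0.68 and 1.29. These classes were picked from the same values by passing at 1 time and not at the other. A smaller median at the other time therefore follows from the selection and is no evidence of a change with time.

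**Figure D1:**
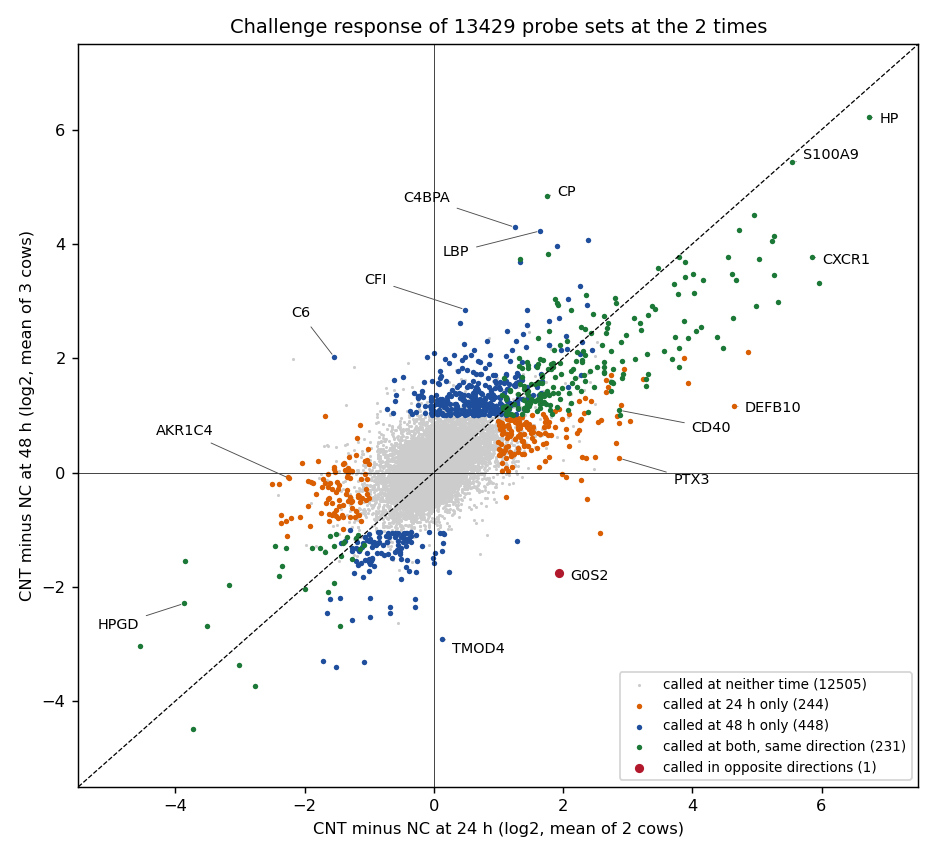
Mean CNT minus NC log2 difference of each of 13429 tested probe sets at 24 h (x axis, 2 cows) and at 48 h (y axis, 3 cows), coloured by the time at which it was called, with the dashed line marking equal changes. Of the 231 probe sets called at both times, 183 have means less than 1 apart, G0S2 stands in the lower right at 1.94 and -1.75, and CP, C4BPA, LBP and CFI stand above the line.

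The size of the response per cow did not separate the times. The root mean square of the CNT minus NC differences was 0.563 in cow8609 and 0.736 in cow8620 at 24 h, and 0.761, 0.624 and 0.668 in cow8452, cow8507 and cow8605 at 48 h. The groups overlapped, and the mean at 48 h was 0.0348 higher (exact permutation test over 10 arrangements of the cows, two-sided p = 0.8, where the smallest p the design allows is 0.1). The sign of this difference turned without cow8609 (-0.0516) and without cow8452 (-0.00341). Across probe sets, which are not independent replicates, Pearson's r of the differences was 0.731 between both 24 h cows, 0.537 on average between 48 h cows and 0.512 on average between cows of different times. Pairs of the same time were more alike by 0.0733 (exact permutation test, two-sided p = 0.3).

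The CC chemokines, which attract monocytes, lymphocytes and dendritic cells, had a lower change at 48 h in 8 of 12 tested genes. Of the 12, 5 were called higher at 24 h and 3 at 48 h, beside 3.01% of 6904 genes at 24 h and 4.43% at 48 h. In 6 of the 12, CCL2, CCL3, CCL4, CCL5, CCL19 and CCL20, every 48 h cow lay below every 24 h cow, and in CCL8 and CCL21 every 48 h cow lay above, beside 1.16% and 2.56% of all genes. The median time difference of the list was -1.19, beside 0.10 for all genes. The median change of the list was, however, 0.58 at 24 h and 0.66 at 48 h. Its per-cow medians overlapped, at 0.37 and 0.79 against 0.37, 0.58 and 0.83. The median level shift of the list (48 h minus 24 h) was 0.44 in NC glands and -0.10 in CNT glands. Leaving out cow8620 or cow8609 leaves 1 cow at 24 h, so the order of the counts could not be checked in this way. The median time difference of the list was -0.9 without cow8620 and -1.15 without cow8609.

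CCL2, the main attractant of monocytes, differed between CNT and NC glands by 3.43 and 3.2 in the 24 h cows and by 1.54, 1.71 and 1.90 in the 48 h cows. It rose at both times, by a mean log2 change of 3.31 ± 0.19 (SE, n = 2, adjusted p = 0.0026) and 1.72 ± 0.16 (SE, n = 3, adjusted p = 0.00411), and the time difference was -1.59 (95% interval -2.17 to -1.02). The CNT levels of CCL2 overlapped between the times, 11.82 and 11.30 against 11.95, 10.54 and 10.95. Its level shift (48 h minus 24 h) was 1.18 in NC glands and -0.41 in CNT glands, and neither shift passed. A second probe set of CCL2 gave 2.91 and 1.65. CCL4, an attractant of monocytes and T cells, differed by 2.47 and 3.29 at 24 h and by 0.70, 1.06 and 1.29 at 48 h. CCL5, an attractant of T cells, differed by 2.11 and 1.48 at 24 h and by 0.40, 0.10 and 0.33 at 48 h, where it was not called (adjusted p = 0.335). The CNT glands of the times overlapped for CCL5, and its level shift was 0.81 in NC glands and -0.70 in CNT glands. The level of CCL19, which guides dendritic cells and T cells through the receptor CCR7, was 8.35 and 8.13 in CNT glands at 24 h and 7.28, 6.95 and 6.55 at 48 h, over NC levels of 5.57 to 6.52 on all arrays. The CNT glands of the times did not overlap for CCL19, and its time difference of -1.64 had an adjusted p of 0.21 with 10 arrays and of 0.0464 with all 20. CCL20, which draws cells bearing CCR6, differed by 2.26 and 2.19 at 24 h, against by 0.03, 1.11 and 0.96 at 48 h. The calls of CCL5 and CCL20 at 24 h were also lost without cow8609, that of CCL4 at 48 h without cow8507 or cow8605.

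The probe sets of CCL3 disagreed in size. The probe set with the higher mean differed by 0.34 and 1.80 at 24 h and by -0.43, -0.06 and 0.25 at 48 h and was called at neither time. The other differed by 3.50 and 5.76 at 24 h and by 1.52, 2.85 and 3.72 at 48 h, and was called at both (adjusted p = 0.013 and 0.0243, the latter lost without cow8507 or cow8605). On the second probe set the cows of the times overlapped.

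CCL8, another attractant of monocytes, ran the other way. Its level was 7.80 and 7.33 in NC and 7.39 and 7.44 in CNT glands at 24 h, so that the cows differed by -0.41 and 0.11. At 48 h it was 8.92, 7.17 and 8.03 in NC and 10.24, 9.28 and 9.33 in CNT glands of cow8452, cow8507 and cow8605, a log2 change of 1.58 ± 0.21 (SE, n = 3, adjusted p = 0.0098). All CNT glands at 48 h lay above all glands at 24 h, and the time difference was 1.73 (95% interval 0.94 to 2.52, adjusted p = 0.305). CCL21, a ligand of CCR7 like CCL19, differed by -0.22 and -0.13 at 24 h and by 1.62, 0.44 and 0.70 at 48 h and passed at neither time.

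Of 12 tested acute phase and antimicrobial genes, 7 were called higher at 24 h and 6 at 48 h, beside 3.01% and 4.43% of all genes. Higher at both times were 5, and the median changes of the list were 2.26 and 2.31. In 3, PTX3, DEFB10 and LAP, all called at 24 h, every 48 h cow lay below every 24 h cow. In 2 every 48 h cow lay above, beside 1.16% of all genes below and 2.56% above. PTX3 encodes pentraxin 3, a soluble pattern receptor that opsonises bacteria. Its level was 8.54 and 9.08 in NC and 11.82 and 11.54 in CNT glands at 24 h. At 48 h it was 7.09, 9.65 and 8.68 in NC and 7.54, 9.85 and 8.78 in CNT glands. Both CNT glands at 24 h were above every other gland, whereas at 48 h the NC and CNT glands overlapped. The log2 change was 2.87 ± 0.24 at 24 h (SE, n = 2, adjusted p = 0.00374) and 0.25 ± 0.20 at 48 h (SE, n = 3, adjusted p = 0.42), and the time difference was -2.62 (95% interval -3.34 to -1.89), with an adjusted p of 0.17 in the fit of 10 arrays and 0.0489 in that of 20. DEFB10, a beta-defensin, had CNT levels of 8.58 and 11.23 at 24 h and 5.88, 6.96 and 7.21 at 48 h over NC levels of 5.24 to 5.67. It rose at 24 h by 4.65 ± 0.59 (SE, n = 2, adjusted p = 0.0116), and its change of 1.16 at 48 h did not pass (adjusted p = 0.158). LAP, the lingual antimicrobial peptide, rose at both times, with per-cow differences of 4.63 and 5.43 at 24 h and 2.73, 4.58 and 3.87 at 48 h.

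CD40, the receptor through which T cells activate antigen-presenting cells, varied little between cows of a time. The cows differed by 2.87 and 2.87 at 24 h and by 1.09, 1.14 and 1.03 at 48 h. CNT levels of 8.67 and 8.83 at 24 h stood above 7.66, 7.04 and 7.49 at 48 h, over NC levels of 5.81 to 6.57. The time difference was -1.78 (95% interval -2.31 to -1.25), with an adjusted p of 0.17 with 10 arrays and 0.0172 with all 20. A second CD40 probe set did not show it, with mean changes of 0.43 and 0.52.

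Larger mean changes at 24 h were also found in single genes of other roles. IL1R2, the decoy receptor that binds interleukin 1 without signalling, had CNT levels of 8.61 and 9.84 at 24 h and 7.01, 6.84 and 7.67 at 48 h, over NC levels of 5.17 to 5.59, and rose at both times by 3.79 and 1.85. Its CNT glands did not overlap between the times, and the adjusted p of the time difference was 0.326 with 10 arrays and 0.0464 with all 20. RETN, which encodes resistin and is stored in neutrophil granules, differed by 2.61 and 3.47 at 24 h and by 0.20, 0.68 and 1.83 at 48 h. NCF1, a subunit of the phagocyte NADPH oxidase, rose at both times by 4.39 and 2.38, and PLAU, the urokinase-type plasminogen activator, by 3.11 and 1.98. LTB, lymphotoxin beta, rose by 2.83 at 24 h and had a change of 0.99 at 48 h that did not pass (adjusted p = 0.0796). TGM3, a transglutaminase, rose by 3.93 at 24 h and was at 1.56 at 48 h (adjusted p = 0.0867). Of 7 tested neutrophil markers, 6 were called higher at 24 h and 5 at 48 h (3 without cow8605), beside 3.01% and 4.43% of all genes. Their CNT means overlapped between the times, as given above. The median time difference of the list was -0.58, and -0.05 without cow8620. The part of neutrophil number in these rises was not tested. The 48 h call of IL1R2 was lost without cow8605, and that of NCF1 without cow8507 or cow8605.

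CD14, the co-receptor for bacterial lipopolysaccharide, was called at 24 h only. Its levels were 10.48 and 11.50 in NC and 12.21 and 13.02 in CNT glands at 24 h, a change of 1.63 ± 0.24 (SE, n = 2, adjusted p = 0.0199). At 48 h NC glands were at 12.11, 12.46 and 12.46 and CNT glands at 11.77, 13.03 and 12.52, a change of 0.10 ± 0.20 (SE, n = 3, adjusted p = 0.771). The CNT glands of the times overlapped, and the NC glands at 48 h stood above those at 24 h by 1.36 (adjusted p = 0.0768).

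**Figure D2:**
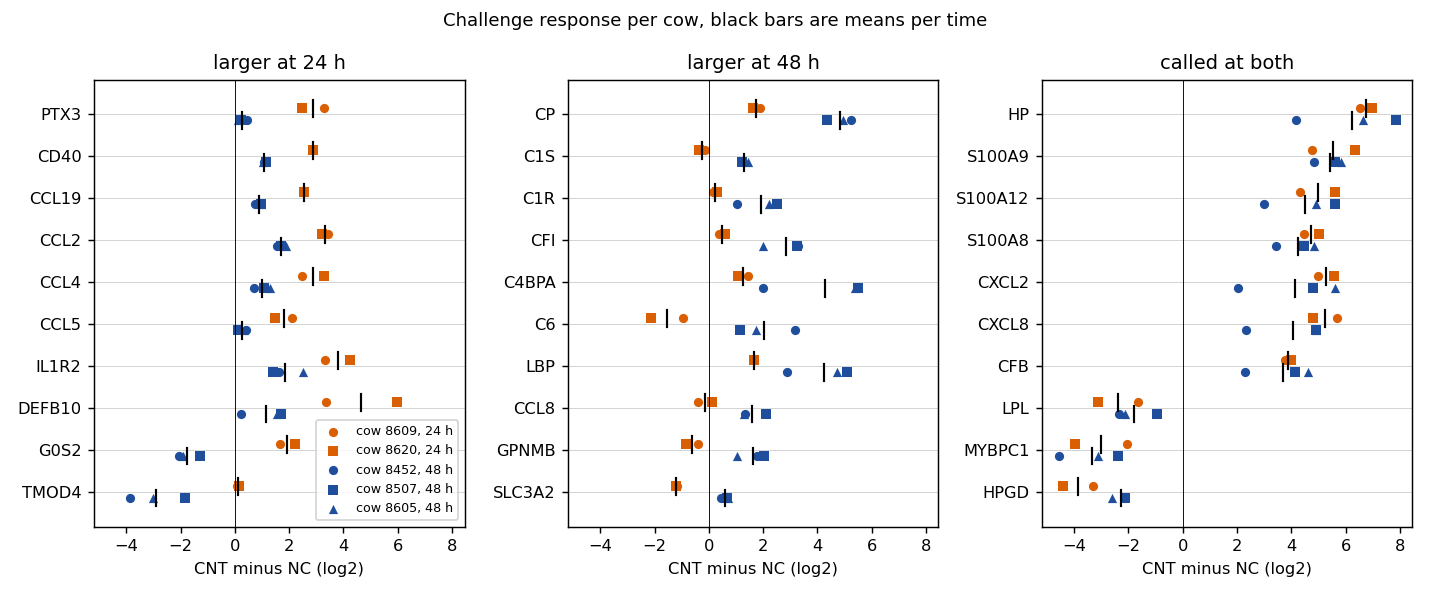
CNT minus NC log2 difference of each cow (orange, 2 cows at 24 h, blue, 3 cows at 48 h, a symbol for each cow) for probe sets described in the text, with black bars at the mean of each time. In the left and middle panels the cows of the times do not overlap, and in the right panel they overlap except for HPGD.

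Complement genes were called more often at 48 h. Of 20 tested complement genes, 3 were called higher at 24 h (CFB, CD55 and ITGB2) and 12 at 48 h, beside 3.01% and 4.43% of all genes. In 8, C1QA, C1R, C1S, C4BPA, C6, C7, CFI and CLU, every 48 h cow lay above every 24 h cow, and in none below. The median change was 0.22 at 24 h and 1.21 at 48 h, beside 0.04 and 0.18 over all genes. The 48 h count was 7 without cow8605, 9 without cow8452 and 11 without cow8507. After quantile normalization 10 were called at 48 h and the median was 1.03. C3, the central component, was called at neither time, with changes of 0.07 and 0.29.

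The genes span the cascade. C1S and C1R encode the proteases that start the classical pathway. C1S differed by -0.14 and -0.37 at 24 h and by 1.22, 1.24 and 1.44 at 48 h, a rise of 1.30 ± 0.15 at 48 h (SE, n = 3, adjusted p = 0.00626). The time difference of C1S was 1.55 (95% interval 0.99 to 2.12), with an adjusted p of 0.234 with 10 arrays and 0.0172 with all 20. C1R differed by 0.14 and 0.32 at 24 h and by 1.04, 2.50 and 2.20 at 48 h. C1QA, a chain of the recognition molecule of that pathway, which macrophages make, rose at 48 h by 1.34 and had a change of 0.26 at 24 h.

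Inhibitors rose beside them. CFI, the protease factor I that cuts C3b and C4b, differed by 0.37 and 0.60 at 24 h and by 3.28, 3.26 and 2.01 at 48 h, a rise of 2.85 ± 0.26 (SE, n = 3, adjusted p = 0.00411). C4BPA, the alpha chain of the C4b-binding protein and a cofactor of factor I, differed by 1.46 and 1.06 at 24 h and by 1.98, 5.49 and 5.40 at 48 h. Its CNT levels overlapped between the times, 11.88 and 11.89 against 11.23, 12.34 and 13.02, whereas its NC levels were 10.42 and 10.82 at 24 h, against 9.25, 6.85 and 7.61 at 48 h. The 48 h call of C4BPA was lost without cow8605 (3.73), as was that of C1R (1.77). CLU, clusterin, which blocks the membrane attack complex, differed by 0.27 and 0.71 at 24 h and by 1.57, 2.12 and 2.39 at 48 h.

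C6 and C7 are parts of the membrane attack complex. C6 had NC levels of 9.24 and 10.30 and CNT levels of 8.30 and 8.16 at 24 h. At 48 h its NC levels were 5.72, 6.09 and 5.89 and its CNT levels 8.88, 7.22 and 7.64. The CNT glands of the times overlapped, and the NC glands differed by -3.87 (adjusted p = 0.0197). C6 rose at 48 h by 2.02 ± 0.39 (SE, n = 3, adjusted p = 0.0264), a call lost without cow8452 or cow8605, and its change of -1.54 at 24 h did not pass (adjusted p = 0.137). The time difference was 3.56 (95% interval 2.12 to 4.99), with an adjusted p of 0.242 with 10 arrays and 0.0489 with all 20. C7 differed by -0.55 and -0.79 at 24 h and by 1.42, 0.34 and 1.22 at 48 h and was called at neither time, its mean at 48 h being just under the minimum size.

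Late acute phase genes were CP and LBP. CP encodes ceruloplasmin, a copper-carrying ferroxidase. On the probe set with the largest change, to which the study's tables give the name IL12A, NC glands had levels of 7.32 and 6.52 at 24 h, against 5.44, 5.04 and 5.34 at 48 h. In CNT glands the levels were 9.22 and 8.13 at 24 h, against 10.66, 9.40 and 10.29 at 48 h. All CNT glands at 48 h stood above those at 24 h and all NC glands below. CP rose by 1.75 ± 0.25 at 24 h (SE, n = 2, adjusted p = 0.0154) and by 4.84 ± 0.20 at 48 h (SE, n = 3, adjusted p = 0.000359), and the time difference was 3.09 (95% interval 2.35 to 3.83, adjusted p = 0.119). The other CP probe sets gave 1.33 and 3.69, and 1.33 and 3.74. The probe set that the annotation names IL12A was too dim to be tested, with differences between -0.32 and 0.10 in the 5 cows.

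LBP, the protein that hands lipopolysaccharide to CD14, had levels of 12.27 and 12.33 in NC and 13.92 and 13.98 in CNT glands at 24 h. At 48 h it had 10.84, 9.15 and 9.53 in NC and 13.73, 14.23 and 14.26 in CNT glands. The CNT glands overlapped between the times and the NC glands differed by -2.46 (48 h minus 24 h), which did not pass (adjusted p = 0.0571). LBP rose at 48 h by 4.23 ± 0.38 (SE, n = 3, adjusted p = 0.00411), and its change of 1.65 at 24 h did not pass (adjusted p = 0.112), although both cows showed it equally.

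Some macrophage genes had larger changes at 48 h, and others did not. VSIG4, a complement receptor of resident macrophages, differed by 0.45 and 0.31 at 24 h and by 2.62, 1.53 and 1.15 at 48 h, a rise of 1.77 at 48 h (adjusted p = 0.0135). GPNMB, a glycoprotein of lipid-laden macrophages, had CNT levels of 5.96 and 7.55 at 24 h and 8.95, 8.53 and 8.74 at 48 h, and NC levels of 6.35 and 8.38, and of 7.16, 6.49 and 7.70. It rose at 48 h by 1.62 (adjusted p = 0.01), and the difference between the times was 2.23 (95% interval 1.41 to 3.05, adjusted p = 0.234). A dimmer GPNMB probe set had changes of -0.22 and 0.50 and was called at neither time. MSR1, the scavenger receptor A, went the other way and fell by 1.51 at 48 h (adjusted p = 0.0308), a call that remained only where cow8507 was left out. A second MSR1 probe set had changes of 0.28 at 24 h and 0.61 at 48 h and was called at neither time. Of 10 markers of monocytes and macrophages, 2 were called higher at 24 h, CD14 and CD68, and 6 at 48 h, or 3 without cow8452. The shares over all genes were 3.01% and 4.43%. The change was higher at 48 h than at 24 h in 6 of the 10 and lower in 4. Their mean level in CNT glands was higher in the cows of 48 h than in those of 24 h, as given above. C1QA, VSIG4 and MSR1 are themselves among these markers. The part of cell number in the complement and macrophage genes was not tested.

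Other late rises were found in single genes. NFKBIZ, an inducible regulator of NF-kB target genes, differed by 1.16 and 0.08 at 24 h and by 1.64, 2.41 and 2.39 at 48 h. A second NFKBIZ probe set of similar brightness did not show it, with changes of -0.23 and -0.21. CHI3L1, a chitinase-like glycoprotein of activated macrophages and neutrophils, rose at 48 h by 4.07 (lost without cow8605) and had a change of 2.39 at 24 h (adjusted p = 0.0978). SDS, serine dehydratase, rose by 3.97 at 48 h, with differences of 1.46, 5.24 and 5.20, and lost the call without cow8507 or cow8605, whereas a second probe set gave 1.93 at 24 h and 2.70 at 48 h. COL3A1, the chain of type III collagen, differed by -0.10 and -0.39 at 24 h and by 2.37, 0.62 and 1.02 at 48 h. Its 48 h call (1.34, adjusted p = 0.0422) remained only where cow8507 was left out. Of 24 genes of collagens and matrix, 18 had a higher change at 48 h, with medians of -0.36 and 0.11, and without cow8452 the 48 h median was -0.24. Called higher were 3 at each time, beside 3.01% of all genes at 24 h and 4.43% at 48 h. Fibroblast and adipocyte markers (6 tested) had CNT means of 7.80 to 8.33 at 24 h and 8.45 to 10.11 at 48 h. COL3A1 and COL1A2 are themselves among these markers, so the means are no separate measure of cells. The part of cell number in the collagen values was not tested.

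Some genes had opposite signs at the times. G0S2, an inhibitor of the lipase that opens lipid droplets, had levels of 7.45 and 8.24 in NC and 9.11 and 10.46 in CNT glands at 24 h. At 48 h it had 10.49, 9.57 and 11.57 in NC and 8.44, 8.27 and 9.66 in CNT glands. It rose at 24 h by 1.94 ± 0.25 (SE, n = 2, adjusted p = 0.0124) and fell by 1.75 ± 0.21 (SE, n = 3, adjusted p = 0.00629) at 48 h. The time difference was -3.69 (95% interval -4.45 to -2.93), the lowest p of all, and it passed with a trended and robust prior (adjusted p = 0.0321) and with every cow scaled to the same size of response (adjusted p = 0.0135). The 24 h call was lost without cow8609 as well as without cow8620. The NC glands were 2.70 higher at 48 h (adjusted p = 0.0623) and the CNT glands overlapped.

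SLC3A2, the heavy chain of amino acid exchangers, fell by 1.19 at 24 h (adjusted p = 0.021), with cow differences of -1.18 and -1.20, and differed by 0.45, 0.66 and 0.69 at 48 h (adjusted p = 0.0502). Its CNT levels overlapped, 10.41 and 10.29 against 10.19, 10.40 and 10.75, whereas NC levels were 11.60 and 11.49 at 24 h, against 9.74, 9.74 and 10.06 at 48 h (adjusted p = 0.0256). DZIP3, a ubiquitin ligase, fell by 1.69 at 24 h (adjusted p = 0.044) and differed by 1.31, 0.87 and 0.78 at 48 h. Its NC levels were 7.31 and 7.28 at 24 h, against 5.26, 5.62 and 5.53 at 48 h (adjusted p = 0.0227). The CNT glands of the times overlapped for DZIP3, and its signal was dim, with a mean of 6.16. SPINK4, a protease inhibitor, differed by 0.87 and 1.71 at 24 h and by -1.89, -0.49 and -1.20 at 48 h, where its call (adjusted p = 0.0441) remained only where cow8507 was left out. All 3 passed the test of the time difference in the fit of 20 arrays, with adjusted p of 0.0181, 0.0277 and 0.0489, and none in that of 10. TMOD4, a cap of actin filaments, had NC levels of 7.08 and 8.02 and CNT levels of 7.15 and 8.19 at 24 h, and fell by 2.91 at 48 h (adjusted p = 0.00629), from 9.49, 9.06 and 9.72 in NC to 5.62, 7.24 and 6.69 in CNT glands.

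**Figure D3:**
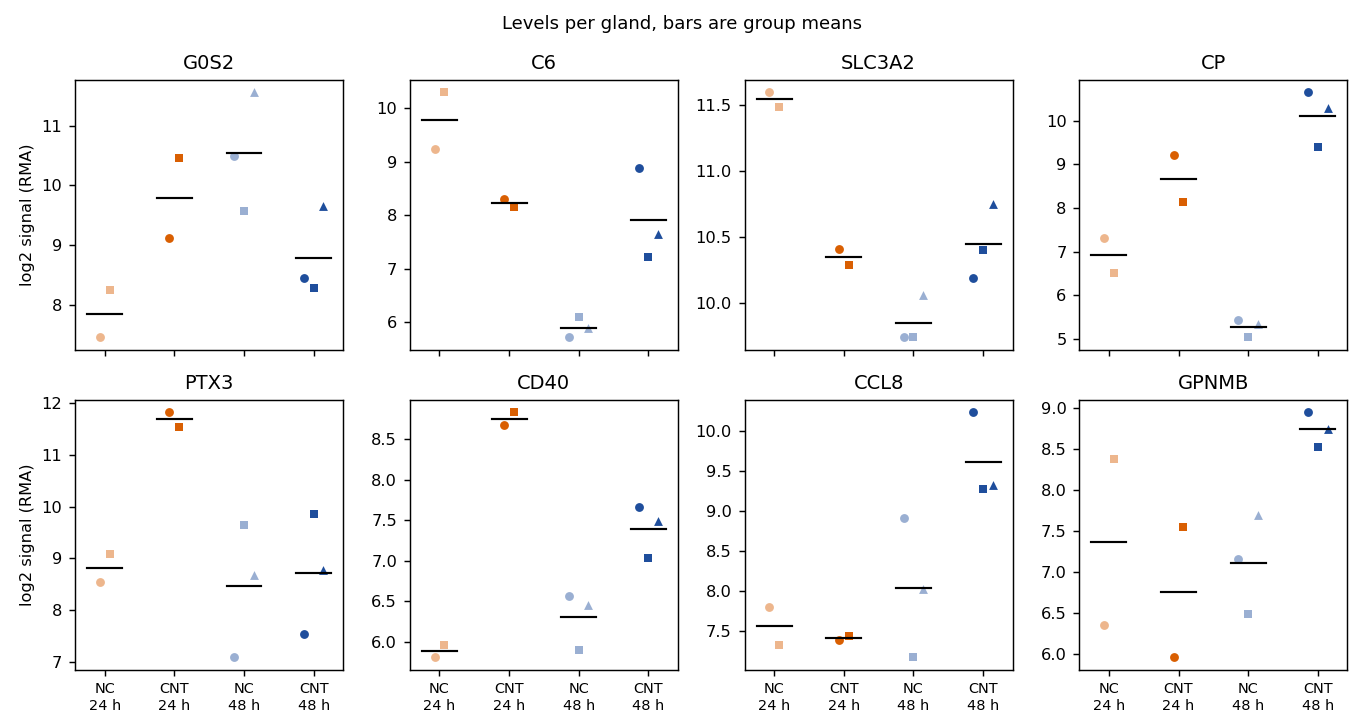
Log2 signal of 8 probe sets in each gland (pale, NC, dark, CNT, orange, 24 h, blue, 48 h, a symbol for each cow within a time), with bars at group means. For G0S2, C6 and SLC3A2 the NC glands of the times are separate while the CNT glands overlap, and for PTX3, CD40 and CCL8 the CNT glands are separate.

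Falls at 24 h that were not called at 48 h were found in single genes. The dimmer of 2 probe sets of AKR1C4, an aldo-keto reductase, had NC levels of 8.46 and 8.12 and CNT levels of 6.56 and 5.53 at 24 h, and levels between 5.38 and 5.77 in all glands at 48 h. It fell by 2.24 ± 0.22 at 24 h (SE, n = 2, adjusted p = 0.00532) and had a change of -0.10 at 48 h. The NC glands differed between the times by -2.61 (48 h minus 24 h, adjusted p = 0.014). The brighter AKR1C4 probe set was called at neither time, with changes of -0.48 at 24 h (adjusted p = 0.246) and -0.17 at 48 h, so the fall rests on the dim one. PIR, pirin, a nuclear iron protein induced by oxidative stress, fell by 2.39 at 24 h (lost without cow8609) on the probe set with the largest change, and had NC levels of 10.39 and 10.16 at 24 h against 6.38, 7.96 and 5.85 at 48 h. The PIR probe sets disagreed in direction: another had changes of -2.26 at 24 h and -0.07 at 48 h, and a dimmer one was called higher at 24 h (1.05, adjusted p = 0.0377) and stood at 0.86 at 48 h. ATF5, a stress-responsive transcription factor, fell by 1.82 at 24 h, a call also lost without cow8507 or cow8605, and its NC glands differed by -2.59 (adjusted p = 0.0197). PEG3, an imprinted zinc finger gene, differed by -1.52 and -1.53 at 24 h and by -0.11, -0.12 and 0.26 at 48 h. The other PEG3 probe sets had changes of -0.24, -1.18 and -1.39 at 24 h, of which the latter were called. LUM, the matrix proteoglycan lumican, differed by -1.48 and -1.98 at 24 h, against by 0.32, -0.40 and -0.66 at 48 h. The 24 h calls of PEG3 and LUM were lost without cow8609.

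Falls at 48 h that were not called at 24 h included enzymes of lipid metabolism. ALOX15, the 15-lipoxygenase that makes lipid mediators, had NC levels of 10.13 and 9.75 at 24 h and 12.14, 11.21 and 12.57 at 48 h, and CNT levels between 7.71 and 8.98 on all 5 arrays. It fell by 3.30 at 48 h (adjusted p = 0.00537), and its change of -1.71 at 24 h did not pass (adjusted p = 0.0872). BDH1, a mitochondrial enzyme of ketone bodies, differed by 0.17 and -0.74 at 24 h and by -3.15, -0.79 and -3.14 at 48 h, a call lost without cow8452 or cow8605. SLC38A3, a glutamine transporter, fell by 2.36 at 48 h (lost without cow8605) on a probe set beside another that did not pass (-1.21, adjusted p = 0.0513), and FBP2, a gluconeogenic phosphatase, had a change of -1.74.

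The unchallenged glands differed between the times as well. The NC glands of 48 h and 24 h differed in 219 probe sets (1.63%), 62 higher and 157 lower at 48 h, whereas 0 probe sets were called between the CNT glands (0%, 1908 at an unadjusted p under 0.05 by limma). The NC count was 0 without cow8452, 1 without cow8620, 2 without cow8609, 20 without cow8605 and 508 without cow8507. Among the 560 probe sets whose cows did not overlap between the times, the NC glands had shifted by more than the CNT glands in 303 and the CNT glands by more in 257, and 69 were also called between the NC glands. For the early probe sets the NC shift was the larger in 68 of 129 and for the late ones in 75 of 122. The same share over all tested probe sets was not counted. Since different cows were sampled, an NC shift with time and a difference between cows cannot be told apart.

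The lasting part consisted of the 231 probe sets called at both times, with 147 gene symbols. The 200 rises had median log2 changes of 1.98 at 24 h and 1.78 at 48 h, and the 31 falls of -1.69 and -1.46. In 167 of the 231 the change was smaller in size at 48 h, and in 183 the means were less than 1 apart. In 31 the cows of the times did not overlap by at least 1 in the mean.

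HP, which encodes the haemoglobin-binding acute phase protein haptoglobin, had the largest mean rise of the 13429 tested probe sets at both times. Its NC levels were between 6.18 and 9.64 and its CNT levels between 13.43 and 14.13 at both times, and it rose by 6.73 ± 0.71 at 24 h (SE, n = 2, adjusted p = 0.0075) and by 6.22 ± 0.58 at 48 h (SE, n = 3, adjusted p = 0.00411). The time difference was -0.51 (95% interval -2.67 to 1.64). The calprotectin subunits S100A8 and S100A9 and their relative S100A12, the bulk cytosolic proteins of neutrophils, rose by 4.73 and 4.24, by 5.55 and 5.43, and by 4.96 and 4.50 at 24 h and 48 h. A brighter probe set of S100A9 gave 3.19 and 2.61, called at both times. SAA3, serum amyloid A3, had CNT levels of 15.10 to 15.24 on all 5 arrays, near the highest value of an array (15.51 or more), over NC levels of 8.78 to 13.14, so its changes of 4.56 and 3.78 followed the NC glands. The 48 h call of SAA3 was lost without cow8605 and its 24 h call also without cow8605 or cow8609.

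Neutrophil chemokines lasted. CXCL8, the chief attractant of neutrophils, differed by 5.68 and 4.78 at 24 h and by 2.34, 4.91 and 4.91 at 48 h, and CXCL2, which acts through the same receptors, by 4.97 and 5.58 and by 2.03, 4.79 and 5.59. In both the value of cow8452 was the lowest of the 5 and the other cows of 48 h were near those of 24 h. CXCR1, a receptor for CXCL8, rose by 5.85 and 3.77. The 48 h calls of CXCL2 and CXCR1 were lost without cow8605. CFB, factor B of the alternative complement pathway, rose by 3.88 and 3.69, and its cows overlapped between the times. CD55 and ITGB2 were likewise called at both times.

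The lasting falls were fewer. HPGD, the enzyme that inactivates prostaglandins, differed by -3.30 and -4.42 at 24 h and by -2.14, -2.11 and -2.62 at 48 h, with means of -3.86 and -2.29. LPL, the lipoprotein lipase that supplies fatty acids for milk fat, fell at both times (-2.39 and -1.81), with the 24 h call lost without cow8609 or cow8605 and the 48 h call lost without cow8452 or cow8605. MYBPC1, a myosin-binding protein, had changes of -3.02 at 24 h and -3.36 at 48 h, PHYHIPL of -3.51 and -2.68 and SHISAL2B, a transmembrane protein, of -3.72 and -4.48. The cows of the times overlapped for LPL, MYBPC1 and SHISAL2B.

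Of the other genes the study named, MAP3K8, a kinase of the Toll-like receptor cascade, differed by 1.24 and 1.17 at 24 h and by 1.51, 2.19 and 2.71 at 48 h and was called at 48 h (2.14, adjusted p = 0.00517). CSF1R and CXCR4, the receptor of the macrophage growth factor and the receptor of CXCL12, were also called at 48 h only, with changes of 0.90 and 1.19, and 1.59 and 1.5. Their time differences were 0.30 and -0.09, although each was called at a single time. The call of CSF1R was lost without cow8452 or cow8605, and that of CXCR4 without cow8452, cow8507 or cow8605. CCR1, a receptor for CCL3 and CCL5, rose by 3.87 and 2.65, with the 24 h call lost without cow8605 or cow8620 and the 48 h call without cow8507 or cow8605.

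The remaining lists were described by counts and medians, the counts of rises beside 3.01% of all genes at 24 h and 4.43% at 48 h. Interferon-stimulated genes had 5 of 23 called higher at 24 h and 10 at 48 h, with medians of 0.76 and 1.0 and a median time difference of 0.03, and the 48 h count was 5 after quantile normalization and 1 to 6 whichever cow was left out, the lowest without cow8605. Cytokines and their receptors had 5 and 9 of 20 called, with medians of 1.0 and 1.01, and 3 at 48 h without cow8605. Antioxidant enzymes had 7 and 7 of 23 called, with medians of 0.70 at both times, and 2 at 24 h without cow8609. Leukocyte adhesion and migration genes had 7 and 4 of 15 called and medians of 1.25 and 0.67, with a lower change at 48 h in 12 of 15, and 3 called at 24 h without cow8605. Milk fat genes had 4 of 32 called lower at 24 h and 8 at 48 h, beside 0.884% and 0.985% of all genes, with medians of -0.35 and -0.47, and the 48 h count was 1 to 9 whichever cow was left out, the lowest without cow8605. Of 16 genes of cholesterol synthesis 15 had a lower change at 48 h, with medians of 0.29 and -0.36, yet 0 and 1 were called, and without cow8609 the 24 h median was -0.03. No gene was called among 35 of the mitochondrial respiratory chain, 15 of milk protein and lactose synthesis, 13 T and NK cell markers or 8 endothelial markers at either time with limma.

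**Figure D4:**
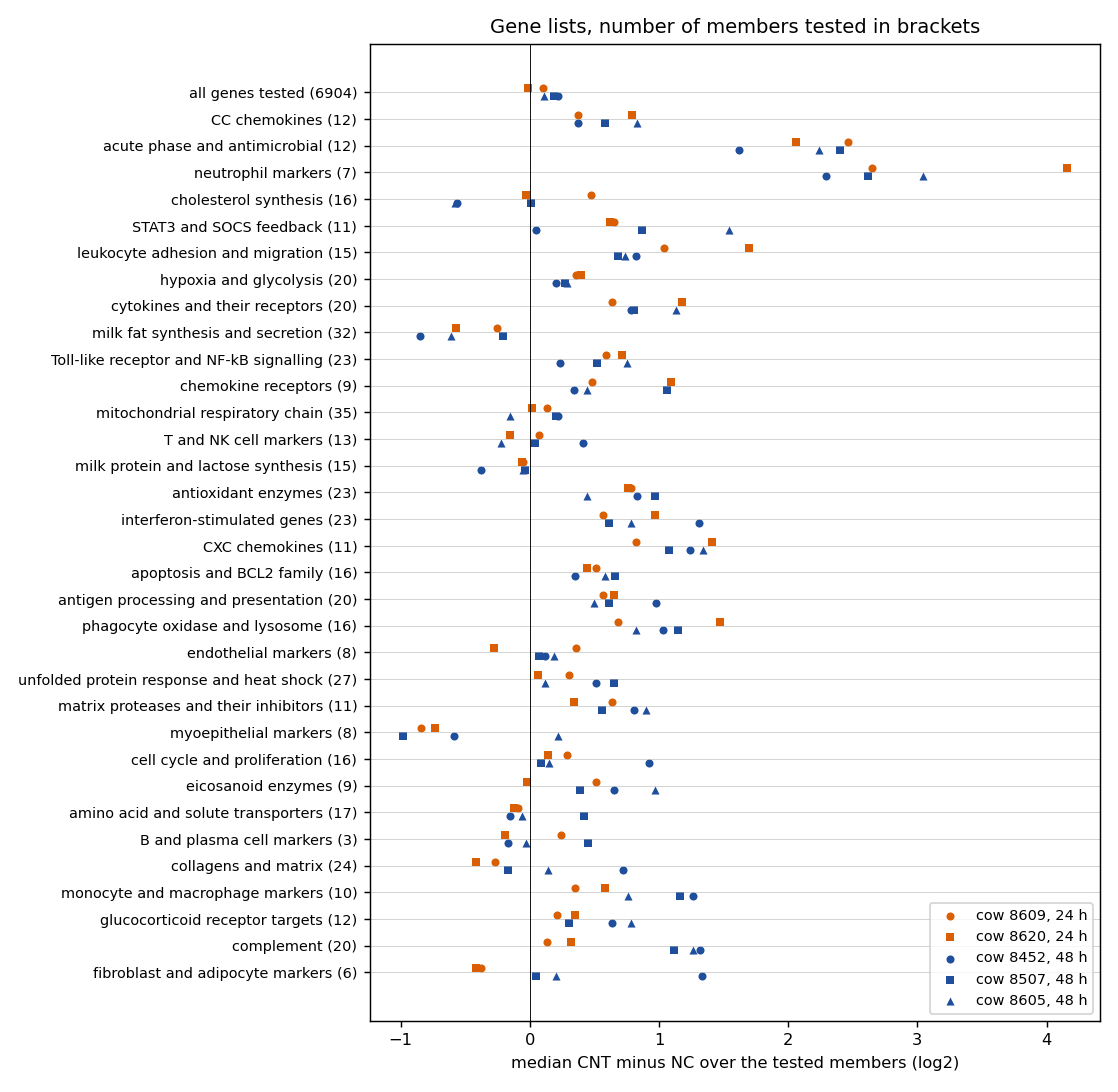
Median CNT minus NC log2 difference over the tested members of each gene list for each cow (orange, 24 h, blue, 48 h), ordered by the median time difference with all genes on top. For complement all 48 h cows (1.12 to 1.32) lie above the 24 h cows (0.13 and 0.32), and all genes tested lie between -0.01 and 0.22.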

How the data were processed

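The authors deposited RMA values on the log2 scale, 1 per probe set and array, made with the affy package: background was corrected, arrays were quantile normalized and probes were summarized. The versions, and whether the arrays of both times were normalized together, are not given in the sources used here. Group, cow and time of each array came from the labels. Of 24128 probe sets 112 controls were left out, and the 13429 brighter than their array's median at least 2 times in 10 were tested, 8662 of them with 1 symbol (6904 genes). Of all probe sets without controls, 13292 had 1 symbol in the array annotation, 86 several and 10638 none, and the names of 3 were taken from titles in the study's tables. Each gene of a list was given by its probe set with the highest mean.

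Per-cow CNT minus NC differences were fitted with limma 3.58.1 in R 4.3.3 (lmFit, eBayes), with a mean per time, and Benjamini-Hochberg adjustment over all tested probe sets. Residual degrees of freedom were 3, to which the prior added 4.38. Levels of NC and CNT glands were compared between the times in separate fits. Precision is limited by how few arrays there were. NC and CNT glands share the animal, and their deviations from the group means correlated in each cow (r = 0.222 to 0.4). The fit was tested on simulated data. Values between cows were compared with exact permutation tests.

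The cows, the 33 gene lists and the rules were chosen with earlier results of these data known. Genes were named for the lowest p of the time difference among probe sets whose cows did not overlap (up to 10 in each direction), the largest of the smaller changes of lasting calls (10 rises, 5 falls), the 5 largest rises and falls called at a single time, up to 4 members per list with the largest time difference, and the genes the study names, of which 1 is not reported here. C7, CLU, CCL20 and CCL21, and further members of short counts, were named after their values were seen. CF and CFPD arrays stayed out of the fit of 10 arrays because the labels of some are in doubt. Alternatives were other blocks, filters, priors, scalings and sizes, 1 probe set per symbol, all 20 arrays and leaving out each cow. Grouping the cows by their hybridisation controls, and quantile normalization of all 20 arrays, were added after seeing the data.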

Additional observations from a re-analysis of the deposited data

Results flagged for a closer look

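In 17 named genes whose cows did not overlap between the times and whose means were at least 1 apart, C7 and CCL21 among them, the difference between CNT and NC glands had one sign in both cows at 24 h and the other sign in the 3 cows at 48 h, although FDPS stood at 0.00 in cow8507 after rounding. The difference between the times was tested for each, and none passed in the fit of the 10 arrays (limma, lowest adjusted p = 0.0836, for G0S2). Over all tested probe sets, 972 (7.24%) had opposite signs in all cows of the times, counted at any size of difference and so more loosely than the 17. A lower change at 48 h was found for G0S2 (a time difference of -3.69 on the log2 scale), TMOD4 (-3.03), SPINK4 (-2.48), ADAMTS1 (-1.91), a matrix protease, and FDPS (-1.26), an enzyme of cholesterol synthesis. A higher change was found for the complement genes C6 (3.56), C7 (1.67) and C1S (1.55), for DZIP3 (2.68), GPNMB (2.23), TAF1D (1.86) and SLC3A2 (1.79), for the collagen genes COL3A1 (1.59), COL15A1 (1.35) and COL1A2 (1.28), and for the chemokines CXCL14 (1.35) and CCL21 (1.09). In the fit of all 20 arrays with the cow as a block, SPINK4, C6, C1S, DZIP3 and SLC3A2 passed.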

How the results depend on the processing

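The probe sets called for the time difference, 0 in the fit of 10 arrays, numbered 26 with all 20 arrays and the cow as a replicate block and 12 when these were also quantile normalized (chosen after seeing the data), 1 (G0S2) with a trended and robust prior or with every cow scaled to the same size of response, and 0 to 5 with a cow left out. They stayed at 0 (1011 to 1912 at an unadjusted p under 0.05) with no or a random replicate block, no filter, and the other scalings. The 24 h calls (476) were 749 with all 20 arrays and the block, 196 with no replicate block for the paired glands, 256 with 1 probe set per symbol, 306 with the cows grouped by hybridisation controls (chosen after seeing the data) and 0 to 675 with a cow left out. The 48 h calls (680) were 418 with no replicate block, 1200 with no minimum size, 369 with 1 probe set per symbol and 247 to 621 with a cow left out. The lasting calls (231) were 100 with no replicate block, 125 with 1 probe set per symbol and 0 to 249 with a cow left out. Of the calls at 24 h and 48 h, 457 and 673 were shared by the fit of 20 arrays with the block. The calls between NC glands (219) were 143 after quantile normalization and 0 to 508 with a cow left out, and between CNT glands 0 were made under every alternative run (1019 to 2423 at an unadjusted p under 0.05, limma). The likeness of cows of the same time kept its sign, at 0.011 to 0.177 with a cow left out. The size difference turned to -0.047 over the 1000 probe sets with the highest variance and ranged from -0.0516 to 0.121 with a cow left out. Of 33 list medians of the time difference, that of the CXC chemokines moved beyond its spread, from 0.05 to -0.51, with the probe set of highest variance per gene. Under these alternatives no named probe set turned its direction in a call. Of 59 named probe sets called at 48 h, 31 kept the call without each cow in turn. For the 53 called at 24 h such a count cannot be read, since leaving out cow8620 or cow8609 leaves 1 cow at that time. Where a cow is left out at 24 h, the other is assumed to vary like the cows of 48 h. Probe sets near the dim end of an array, such as the one annotated IL12A, could not be tested. Promoter motifs were not run. The cause of these changes was not tested.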

Other observations

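Enzymes of lipid mediators other than HPGD and ALOX15 had separate values. PTGDS, a prostaglandin D synthase, differed between CNT and NC glands by 0.51 and 0.27 at 24 h and by 0.81, 1.84 and 1.97 at 48 h, where it was called (limma, adjusted p = 0.0143), and without cow8507 or cow8605 no gene of the list was called higher at 48 h. ALOX5AP, which presents arachidonic acid to the 5-lipoxygenase, differed by 1.49 and 4.42 at 24 h, where it was called (adjusted p = 0.0401), and by 1.54, 1.87 and 2.05 at 48 h, where it was not (adjusted p = 0.0549). LTA4H, the leukotriene A4 hydrolase, differed by 2.61 in cow8605 and by -0.14 to 0.91 in the other cows.

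Among genes of interleukin 6 type signalling and its feedback, 1 of 11 was called higher at 24 h and 3 at 48 h, beside 3.01% and 4.43% of all genes. SOCS3, the feedback inhibitor, differed by 2.22 and 3.16 at 24 h (adjusted p = 0.0353) and by 0.2, 1.8 and 2.47 at 48 h (adjusted p = 0.0621). STAT3, CEBPB and CEBPD, transcription factors of the acute phase response, were called at 48 h with changes of 1.25, 1.1 and 1.05, and had 0.62, 0.99 and 0.34 at 24 h. Without cow8452 4 genes of the list were called at 24 h and 6 at 48 h, and without cow8605 0 were called at 48 h.

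Cow8452 had the largest number of tested probe sets higher in CNT by at least 1 on the log2 scale, 1350 against 546 to 935 in the other cows. In the same cow KRT14, a keratin of basal and myoepithelial cells, differed by 2.77, against -0.89 to 0.43 in the other cows. MCM6, a subunit of the DNA replication helicase, differed by 2.43 in it and by 0.25 to 0.96 in the others. The collagen gene COL1A2 differed by 1.78 in it and by 0.50 and 0.40 in the other cows of 48 h.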
